A study of Mus musculus with 4 samples.

Results

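The renin-angiotensin system genes Ren1, Agt, Ace, Agtr1a, Enpep, Mme and Atp6ap2 were described across the cell types of the mouse kidney in the CIAKI model, in which an imaging contrast agent injures the kidney. The members were chosen by symbol, and each of the 7 matched 1 of the 57132 gene rows in every library. Their identifiers in the files are ENSMUSG00000070645 (Ren1), ENSMUSG00000031980 (Agt), ENSMUSG00000020681 (Ace), ENSMUSG00000049115 (Agtr1a), ENSMUSG00000028024 (Enpep), ENSMUSG00000027820 (Mme) and ENSMUSG00000031007 (Atp6ap2). Kidneys of 4 wild type mice, all with CIAKI induction and all labelled batch 1, gave 1 droplet library each. No untreated mouse is among the samples analysed here, so every comparison is between cell classes within injured kidneys. Strain, sex, age, the agent used, dose and timing are not given in the sources used here. That the libraries are separate animals rests on the labels. With the mouse as a block, p-values weigh a class difference within mice against how it varies between these samples.

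Renin, the product of Ren1, is released by juxtaglomerular cells, modified smooth muscle cells in the wall of the arteriole that enters the glomerulus. It cuts angiotensinogen (Agt) to angiotensin I, which angiotensin-converting enzyme (Ace) turns into angiotensin II. Angiotensin II acts on the type 1 receptor (Agtr1a), constricting vessels and raising salt retention, and is degraded by aminopeptidase A (Enpep), while neprilysin (Mme) cuts angiotensin I and other peptides. Atp6ap2, the prorenin receptor, is also an accessory protein of the vacuolar proton pump.

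The libraries held 8790 to 17312 barcodes and 36831995 to 105436725 unique molecular identifiers (UMIs, counts of single captured transcripts). After filters 7085, 8747, 12903 and 12091 cells of mice 1 to 4 remained, 40826 of 48213 barcodes, and mouse 4 had the lowest depth, with a median of 2077 UMIs per cell against 5549 to 5777 in the other mice. Mice 1, 2 and 3 shared 23, 42 and 54 barcodes pair by pair, whereas mouse 4 shared 1 barcode with mouse 2 and 0 with the others. Cells were clustered without the members and placed in 14 classes by marker genes, so each class name below means cells like that type, and 3883 cells were left without a name. Classes were unevenly filled, and the mural class (smooth muscle, pericytes and mesangium) had 116, 200, 1210 and 12 cells in mice 1 to 4. Every class marker found in the files was detected in its own class, and the proximal tubule list had the lowest range there, from 1.49 to 594 CPM (UMIs per 1000000 UMIs). A level below is the CPM of a gene over the summed UMIs of all cells of a class in 1 mouse, given as mean ± SD over mice.

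To show regulatory sequence at the extremes of restriction, the 250 bases before the RefSeq transcription start are printed for Ren1, Agt and Atp6ap2. Ren1 was found almost wholly in mural cells and Atp6ap2 in every class. Among the named classes Agt was highest in thin limb and proximal tubules. Capitals mark TATAAA, the core of the TATA box, which directs where transcription starts. Each is written 5′ to 3′ on the gene's strand, from RefSeq on GRCm38.p6. For the counts, the build is not given in the sources used here.
Ren1, chr1:133350424-133350673, plus strand: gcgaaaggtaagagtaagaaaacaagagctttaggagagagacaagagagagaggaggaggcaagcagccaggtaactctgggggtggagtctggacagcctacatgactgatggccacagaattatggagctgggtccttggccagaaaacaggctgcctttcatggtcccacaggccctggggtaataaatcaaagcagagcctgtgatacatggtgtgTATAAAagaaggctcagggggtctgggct
Agt, chr8:124569707-124569956, minus strand: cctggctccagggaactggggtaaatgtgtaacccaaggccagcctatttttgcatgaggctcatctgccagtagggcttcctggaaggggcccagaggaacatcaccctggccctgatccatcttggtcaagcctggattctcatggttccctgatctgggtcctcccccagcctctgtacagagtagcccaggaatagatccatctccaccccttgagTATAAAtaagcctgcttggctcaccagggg
Atp6ap2, chrX:12587509-12587758, plus strand: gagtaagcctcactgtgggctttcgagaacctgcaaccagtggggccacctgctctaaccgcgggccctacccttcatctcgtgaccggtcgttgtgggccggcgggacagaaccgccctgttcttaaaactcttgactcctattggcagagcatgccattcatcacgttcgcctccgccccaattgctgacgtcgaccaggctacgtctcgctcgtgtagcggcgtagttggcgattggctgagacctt
Promoter windows were matched for 6 of the 7 members, and Agtr1a had no entry. On the gene strand TATAAA was found in Ren1, 29 bases before the start, and in Agt, 30 bases before it, and in none of the windows of Ace, Enpep, Mme or Atp6ap2. The opposite strand held these letters in 1 window of Ace and in that of Enpep. Only these exact letters were matched, so near forms, such as TATAAT on the gene strand of that Ace window, were not counted. Of 32851 promoter windows of this length plus the 50 bases after the start, 7.59% hold these letters on the gene strand and 12.4% on either strand.

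Ren1 transcripts were concentrated in a small number of mural cells. Mural cells held 95.7% of the 221430 Ren1 UMIs in kept cells, with levels of 41280, 41641, 6954 and 193267 CPM in mice 1 to 4 (70785.5 ± 83259, n = 4). Mouse 4 was highest and mouse 3 lowest, and no mural value overlapped that of any other class. The mean without mouse 4, whose value rests on 12 cells, was 29958 CPM. Within the mural class the UMIs were again unequally spread. Of 1538 mural cells 802 had no Ren1 UMI, 458 had 1 to 19, 137 had 20 to 99 and 141 had 100 or more. The cells with 100 or more, 143 in all with 2 outside the mural class, held 93.3% of all Ren1 UMIs. The cell with the most had 16569 Ren1 UMIs, which was 27.9% of its transcripts, and in mouse 4 Ren1 took up to 42.2% of a cell's UMIs. The strain is not given, and some mouse strains carry the close copy Ren2, so counts of Ren1 may include or lose reads of that copy.

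**Figure D1:**
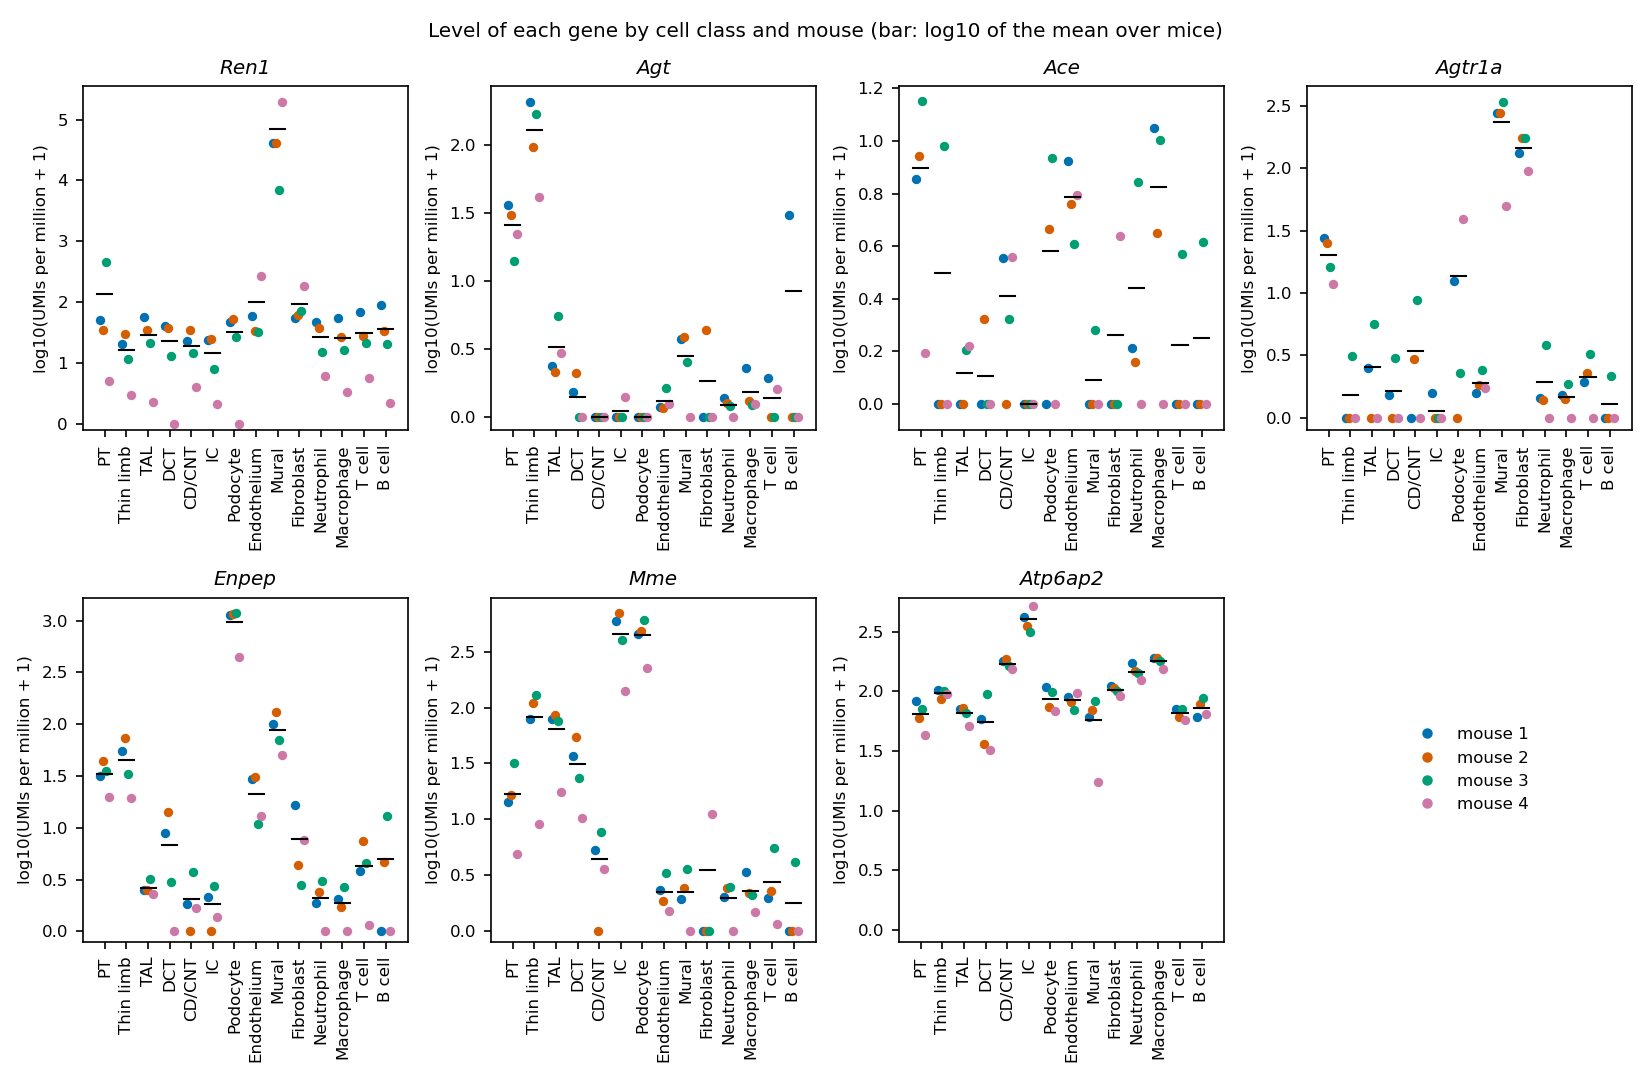
Level of each of the 7 genes in 14 cell classes, as log10 of CPM plus 1, with 1 point per mouse and a bar at the log10 of the mean over mice. Ren1 stands apart in mural cells, Enpep in podocytes and Atp6ap2 in intercalated cells (IC), while Ace stays low in every class. PT, proximal tubule; TAL, thick ascending limb; DCT, distal convoluted tubule; CD/CNT, collecting duct and connecting tubule.

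Whether Ren1-rich cells carried another juxtaglomerular transcript was asked by splitting mural cells on 1 or more UMIs of Akr1b7, an aldo-keto reductase made by renin cells. Of the 141 mural cells with 100 or more Ren1 UMIs, 135 had Akr1b7. In mice 1 to 3 Ren1 stood at 67953, 60330 and 17261 CPM in 519 Akr1b7-positive cells and at 905, 1689 and 477 CPM in 1007 Akr1b7-negative cells. Positive cells were higher in 3 of 3 mice and the ranges did not overlap. The log2 fold change was 5.59 (SE 0.28, edgeR quasi-likelihood test, adjusted p = 5.2e-04). Ren1 was the only member called of 4 tested, where 0.136% of all genes were called, 0.0943% higher and 0.0419% lower. Akr1b7-positive cells were deeper, with median UMIs of 11461, 14188 and 9864 against 4222, 6031 and 6636, and with every cell thinned to 1000 UMIs the change was 4.80. Without mouse 2 the adjusted p was 0.0555 and without the mouse as a block 0.220. Mouse 4 had 7 positive and 5 negative cells and did not enter this test.

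The other members were less divided by Akr1b7. Agtr1a averaged 231 ± 52.5 CPM in Akr1b7-positive and 402 ± 42.2 CPM in Akr1b7-negative mural cells, lower in the positive cells of 3 of 3 mice, but did not pass the test (log2 fold change -0.73, SE 0.19, adjusted p = 0.219 by edgeR). It passed without mouse 3 (-0.98, adjusted p = 0.0170) and with no filter on low counts (-0.67, adjusted p = 0.0199). Enpep stood at 118 ± 31.3 against 72.1 ± 23.5 CPM, higher in 3 of 3 mice, with an adjusted p of 0.222 (0.0155 with no filter). Atp6ap2 differed by less than the spread between mice, at 71.97 ± 14.8 against 68.7 ± 9.06 CPM. Of the 12 genes of the renin cell and its control, 9 were tested and Akr1b7, which set the gate, was the only one called. The juxtaglomerular marker Gja4 was lower in the positive cells of mice 1 to 3, at 138, 142 and 114 against 148, 144 and 145 CPM. Rgs5, another such marker, stood at 3751, 4480 and 3053 against 2985, 4361 and 3266 CPM, lower in the positive cells of mouse 3. In the 20 other renin-angiotensin genes 0 of 9 tested were called by edgeR, 1 at an unadjusted p under 0.05 and 0 by DESeq2.

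The mural class was made of 4 clusters that carried the members differently. Cluster 18, whose leading genes included Ren1, Akr1b7 and the endothelin receptor gene Ednra, held 895 cells, of which 818 came from mouse 3. Its Ren1 level was 157001 CPM in mouse 1, 178187 in mouse 2 and 8660 in mouse 3. Cluster 40, led in part by the contractile genes Cnn1 and Myl9 and with 69 and 119 cells of mice 1 and 2, stood at 7693 and 6836 CPM, and cluster 30, led in part by the smooth muscle actin gene Acta2 and with 329 of 340 cells from mouse 3, at 3675 CPM. In cluster 45, led by Cxcl13 and Sfrp2, Ren1 was at 1330, 2818 and 11435 CPM in mice 1 to 3, so that in mouse 3 it lay above cluster 18. This cluster held the highest Agtr1a of the mural clusters, 891, 614 and 632 CPM in mice 1 to 3, and its Enpep was 0, 12.9 and 14.3 CPM, below the other clusters. In cluster 30 Agtr1a was 53.3 CPM, the lowest of the mural clusters. Since cluster and mouse overlap, differences between clusters 30 and 40 cannot be told apart from differences between mice.

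**Figure D2:**
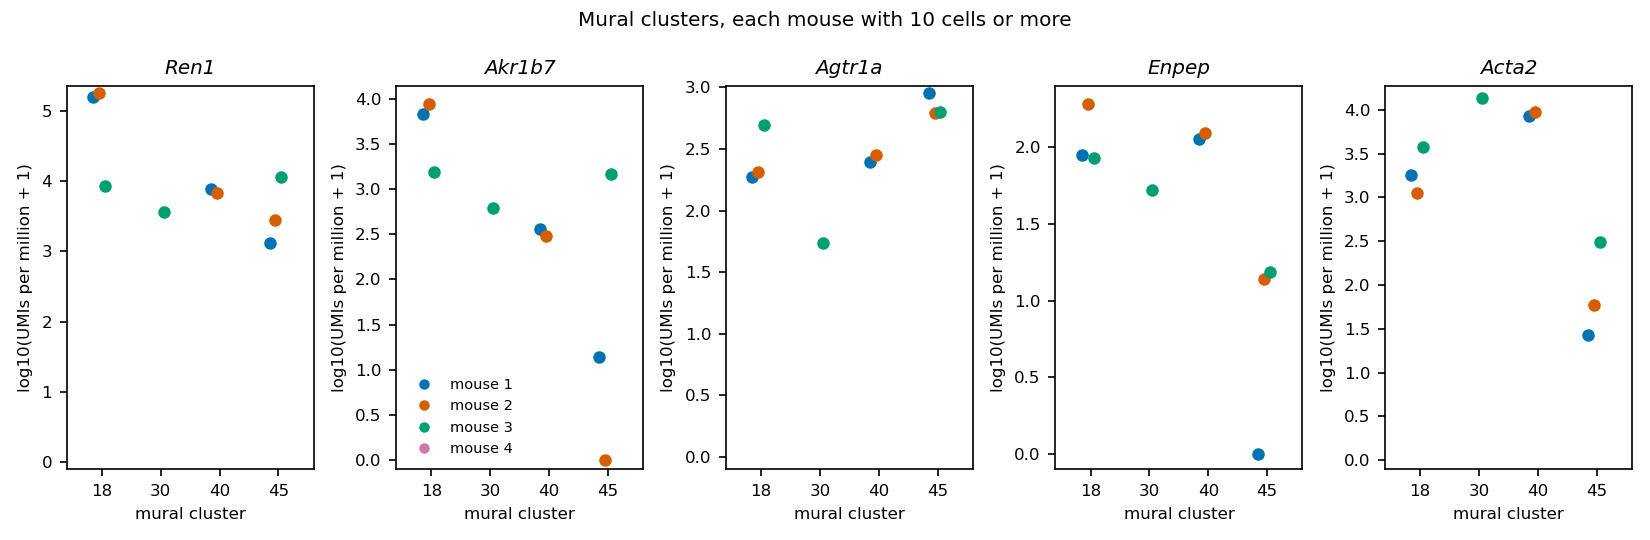
Levels of Ren1, Akr1b7, Agtr1a, Enpep and Acta2 in the 4 mural clusters, as log10 of CPM plus 1, with 1 point for each mouse that had 10 cells or more in the cluster. Ren1 is high in cluster 18 of mice 1 and 2, and Agtr1a is highest in cluster 45 where Enpep is lowest.

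Against other stromal and vascular cells the mural class differed in several members. Compared with endothelium, 4 of 5 tested members were called, 3 higher and 1 lower, where 32.8% of all genes were called, 16.2% higher and 16.6% lower. Ren1 was higher by 9.12 on the log2 scale (SE 0.75, adjusted p = 2.2e-07), Agtr1a by 7.99 (SE 0.41, adjusted p = 4.5e-09) and Enpep by 2.18 (SE 0.25, adjusted p = 6.5e-06), while Ace was lower (-2.76, SE 0.61, adjusted p = 0.0023), all in 4 of 4 mice by edgeR. All 9 mural Ace UMIs came from mouse 3, and the fitted change without it, -7.44, is against mural cells with 0 Ace UMIs. Mouse 4 had 60926 mural UMIs in 12 cells, too few for 0 Ace UMIs to show a level under that of endothelium (5.11 CPM). Compared with fibroblasts, 2 of 4 tested members were called, both higher, where 18.6% of all genes were called, 8.53% higher and 10.1% lower. They were Ren1 (8.97, SE 0.69) and Enpep (4.13, SE 0.48). Agtr1a (0.71, SE 0.29, adjusted p = 0.118) passed the test only without mouse 4 or with the highest doublet scores removed (adjusted p = 0.0464 and 0.0481). Removing those scores left 6 mural cells in mouse 4, so both settings ran on mice 1, 2 and 3. Atp6ap2 (-0.67, SE 0.28, adjusted p = 0.134) lay lower in mural cells of 4 of 4 mice.

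Genes known to mark or control renin cells moved in the same comparison. Of the 12, 9 were tested between mural cells and endothelium and 8 were higher, among them Rgs5, a marker by which the mural class was named, with a median log2 fold change of 2.06 against -0.06 over all genes. Apart from Rgs5, whose change (9.30, SE 0.60) restates the naming, those with the largest changes were Akr1b7 (9.16, SE 0.55), the potassium channel gene Kcnma1 (7.36, SE 0.43) and the adenosine receptor gene Adora1 (4.88, SE 0.49). Of the 20 other renin-angiotensin genes 10 were tested, 1 was higher and 2 were lower. The higher gene was Agtr1b, the other type 1 angiotensin receptor of rodents, with 196 UMIs in mural cells and 0 of 36790281 UMIs in endothelium, at least 184-fold higher against a floor of 3 UMIs over the group. Agtr1a and Agtr1b are close copies, so counts may be split between them. The lower genes were the aminopeptidase gene Rnpep (-0.81, SE 0.28) and the kallikrein gene Klk1 (-0.77, SE 0.26). Between mural cells and fibroblasts 4 of 5 tested renin cell genes were higher, Akr1b7, Kcnma1, the connexin gene Gja4 and the naming marker Rgs5, and 0 of 4 tested renin-angiotensin genes were called by edgeR, 1 at an unadjusted p under 0.05 and 0 by DESeq2.

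Ren1 was also counted at a low level in every other class. In neutrophils, T cells and B cells, which do not make renin, Ren1 stood at 47.8, 36.7, 16.4 and 4.30 CPM in mice 1 to 4, which was 6.25%, 2.56%, 2.19% and 1.20% of the level over the whole library. A Ren1 UMI was found in 23.9%, 18.8%, 12.5% and 0.980% of neutrophils (95% exact binomial intervals 22.2 to 25.7, 17.5 to 20.04, 10.5 to 14.6 and 0.119 to 3.496, for counting error only). In mural cells the shares were 62.9%, 63.0%, 43.6% and 83.3%. Median depths averaged 4610 UMIs in neutrophils and 6912 in mural cells, and with cells thinned to 1000 UMIs the mean shares were 3.21% and 49.0%. Barcodes removed by the filters held more, at 151, 108, 53.4 and 13.0 CPM.

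Free renin-cell RNA was looked for through a partner transcript. In mural cells there were 22.7, 20.7, 5.71 and 7.78 Ren1 UMIs per Akr1b7 UMI in mice 1 to 4. In the blood cell classes together the ratio was 12.0, 13.2, 5.44 and 4.86, from 67, 68, 43 and 7 Akr1b7 UMIs. Both transcripts were counted in cells that should lack them, and mice 1 and 2 had higher ratios than mice 3 and 4 in both populations. Other mural transcripts gave other ratios. For Acta2 there were 0.898, 0.723, 0.517 and 1.89 Ren1 UMIs per UMI in the blood cell classes of mice 1 to 4 and 6.49, 5.75, 0.964 and 22.3 in mural cells. For Tagln the ratios were 6.02, 5.29, 3.34 and 2.83 in blood cells and 11.3, 10.2, 2.94 and 32.8 in mural cells. For Myh11 they were higher in blood cells of mice 1 to 3, at 13.1, 16.6 and 5.20 against 10.6, 9.53 and 3.59. In mouse 4 the blood cells had 3 Myh11 UMIs. Ren1 was thus lower relative to Acta2 in blood cells of 4 of 4 mice and higher relative to Myh11 in 3 of 4.

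**Figure D3:**
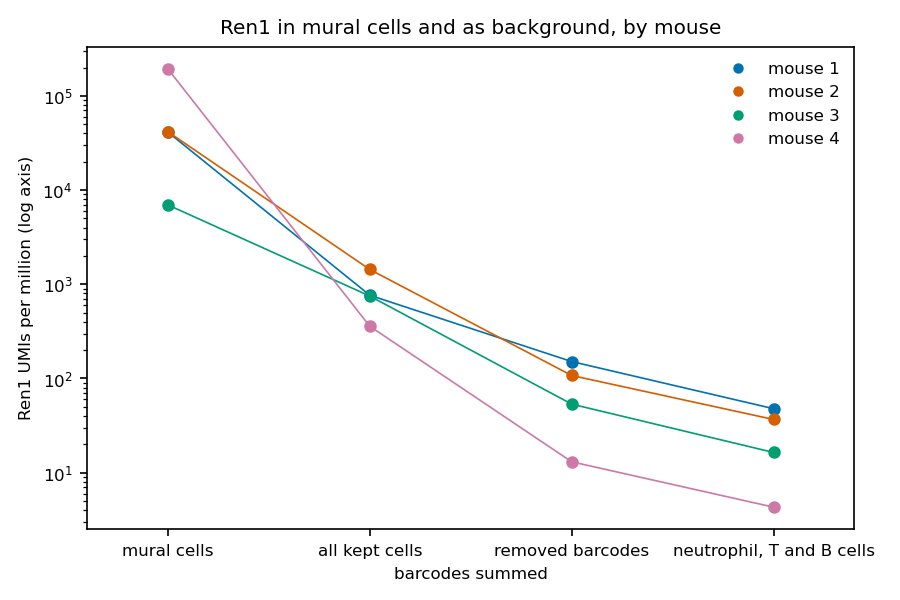
Ren1 level in CPM on a log axis in mural cells, all kept cells, barcodes removed by the filters, and neutrophils, T cells and B cells together, with 1 line per mouse. In each mouse the blood cells lie lowest, from 4.30 to 47.8, and mouse 4 has the highest mural and the lowest blood cell value.

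Few cells outside the mural class were rich in Ren1. Of 39288 such cells 7 had 20 or more Ren1 UMIs, a limit that cannot show a smaller excess over the background. A cell of mouse 3 in the proximal tubule class had 2076 Ren1 and 367 Akr1b7 UMIs among 36243, with 10 UMIs of the tubule receptor gene Lrp2, and a cell of mouse 4 in the endothelial class had 1083 Ren1 and 93 Akr1b7 UMIs among 5406, with 1 of Pecam1. Without the 7 cells, Ren1 went from 136 ± 214 to 27.5 ± 19.4 CPM in the proximal tubule and from 99.5 ± 118 to 30.9 ± 22.3 CPM in endothelium. All 13 classes other than mural then averaged 13.7 to 93.1 CPM. Fibroblasts had the highest mean, at 54.6, 60.1, 70.7 and 187 CPM, from 120 UMIs in 230 cells. They lay above neutrophils, T cells and B cells in mice 2, 3 and 4, but in mouse 1 below B cells (89.8 CPM), T cells (69.0), endothelium (58.5) and macrophages (55.3). Below mural cells the ranges of all neighbouring classes in the order overlapped.

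Agt, the substrate of renin, had its highest means among the named classes in 2 nephron segments. In thin limb cells it stood at 209, 96.1, 169 and 40.7 CPM (129 ± 75.0, n = 4, 249 UMIs in 236 cells) and in the proximal tubule at 35.1, 29.5, 13.2 and 21.3 CPM (24.8 ± 9.60). Thin limb cells were above proximal tubule cells in 4 of 4 mice and the ranges did not overlap. The difference between these 2 classes was not among the planned tests. In T cells, as background, Agt was at 0.386 ± 0.468 CPM. Podocytes had 0 Agt UMIs, for which a floor of 3 UMIs per mouse allows 1.27 to 14.4 CPM, and collecting duct cells also had 0 (0.522 to 5.96 CPM). No class other than these segments and B cells, where a single UMI in 581 cells gave 7.48 CPM, averaged over 2.24 CPM. A cluster without a class name was led by genes such as Ncam1 and Cldn1, known from the epithelium of the glomerular capsule. It had Agt at 167, 116, 29.5 and 88.1 CPM in 324 cells, above the proximal tubule class in each mouse.

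Between the proximal tubule and the thick ascending limb, 4 of 6 tested members were called, 3 higher and 1 lower, where 38.1% of all genes were called, 19.1% higher and 19% lower. Enpep (4.04, SE 0.28, adjusted p = 1.7e-06), Agtr1a (3.30, SE 0.62, adjusted p = 0.0018) and Agt (3.17, SE 0.50, adjusted p = 5.7e-04) were higher in the proximal tubule of 4 of 4 mice. Mme was lower there in 4 of 4 mice (-2.18, SE 0.26, adjusted p = 8.1e-05, edgeR). Atp6ap2 did not pass, nor did Ren1 (1.17, adjusted p = 0.272), which stood at -0.086 without the non-mural cells of 20 or more Ren1 UMIs. Ace, with 90 against 4 UMIs, did not reach the count filter in all mice, and passed when mouse 4 was left out (5.07, adjusted p = 7.9e-04). Thinned to 1000 UMIs per cell, Agt and Agtr1a fell under the filter. With the capsule-gene cluster counted as proximal tubule, Mme stood at -0.52 (adjusted p = 0.0512).

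Other renin-angiotensin genes were also called in this comparison. Of the 20 in the list 11 were tested, 5 were higher and 2 were lower in the proximal tubule, with a median log2 fold change of 0.58 against 0.00 over all genes. The largest changes were in Klk1, the gene of tissue kallikrein (-6.16, SE 0.58, 83.6 against 5068 CPM), Anpep, aminopeptidase N (2.64, SE 0.66), Prcp, a carboxypeptidase (1.60, SE 0.18), and Prep, prolyl endopeptidase (1.04, SE 0.19). Free RNA was looked for with Ren1 and was not tested for Klk1. Of 12 genes of the renin cell and its control 8 were tested, 1 was higher and 5 were lower. The lower genes included markers of the macula densa and thick limb, with the nitric oxide synthase gene Nos1 at 1 against 326 UMIs and the calcium receptor gene Casr at 1.23 against 104 CPM.

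Ace was low in every class and unevenly spread among endothelial subtypes. Its class means were 6.93 ± 5.19 CPM in the proximal tubule, 5.69 ± 4.80 in macrophages and 5.11 ± 1.79 in endothelium, in overlapping ranges, from 90, 320 and 164 of the 816 UMIs in all kept cells. Among endothelial subtypes, glomerular cells had 29.9, 36.9, 10.8 and 34.8 CPM in mice 1 to 4 (28.1 ± 11.9) and arterial cells 19.5, 15.8, 2.46 and 26.8 CPM (16.1 ± 10.2). Peritubular capillary cells, named in mice 1, 2 and 4, averaged 0.542 ± 0.569 CPM. Glomerular cells were above arterial cells in 4 of 4 mice, though the glomerular value of mouse 4 rests on 2 UMIs.

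The subtype tests used mice 1, 2 and 4. Ace was higher in glomerular than in peritubular endothelium (46 against 4 UMIs, log2 fold change 5.28, SE 0.50, adjusted p = 2.8e-08), the only member called of 3 tested, where 14.8% of all genes were called, 6.46% higher and 8.36% lower. It was also higher in arterial than in peritubular endothelium (52 against 4 UMIs, 4.52, SE 0.53, adjusted p = 3.9e-05), again the only member called of 3 tested, with 19.1% of all genes called, 10.5% higher and 8.62% lower. Both directions held in 3 of 3 mice. With mouse 3 among the mice, Ace did not reach the count filter in the arterial comparison. This was so under a mitochondrial limit of 20%, cells of 1000 UMIs or more, a coarser clustering or removal of high doublet scores. All but the mitochondrial limit ran on mice 1, 2 and 3, without mouse 4. After thinning Ace reached the filter in neither comparison.

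Enpep had the opposite order among endothelial subtypes. It averaged 29.8 ± 19.1 CPM in peritubular (44.3, 37.1 and 8.17 in mice 1, 2 and 4), 3.25 ± 3.12 in arterial and 2.00 ± 1.98 CPM in glomerular cells. Its counts did not pass the filter, so it was not tested in the main setting, and where it was, it was lower, by -2.81 in arterial and -3.66 in glomerular cells without mouse 4 (adjusted p = 3.2e-07 and 5.5e-12). Of the other lists, the lysosomal and angiotensin-cleaving carboxypeptidase gene Prcp was higher in arterial cells (4.39, SE 0.42), the only one of 8 tested renin-angiotensin genes. Among renin cell genes the natriuretic peptide receptor gene Npr1 (-0.74, SE 0.16) was lower in arterial cells, and the connexin genes Gja5 (317 against 2 UMIs) and Gja4 (4.54, SE 0.19) were higher, both markers by which arterial cells were named. In glomerular cells Gja4 (4.02, SE 0.29) was higher and Npr1 (-0.78, SE 0.20) lower, 2 of 2 tested, and Klk1 (1.95, SE 0.44) was higher, in 1 of 3 mice. Ren1 in glomerular cells (2.70, SE 1.16, adjusted p = 0.147) was raised by the single cell of mouse 4 described above, without which the change was 0.44. Leaving out mouse 1 gave 5.16 (adjusted p = 4.2e-11), with that cell still included.

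**Figure D4:**
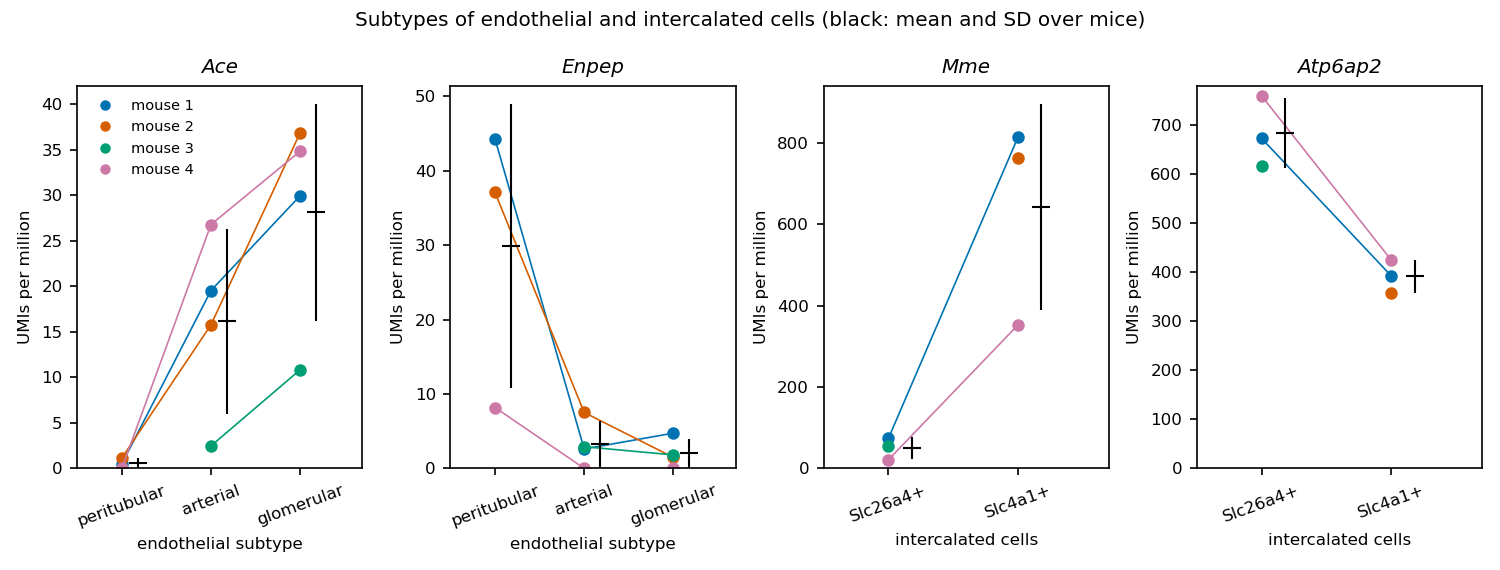
Level in CPM of Ace and Enpep in endothelial subtypes and of Mme and Atp6ap2 in intercalated cells with Slc26a4 or Slc4a1 UMIs, with 1 point per mouse, lines joining a mouse, and the mean and SD in black. Ace is near 0 in peritubular cells where Enpep is highest. In the 2 mice with both intercalated groups Mme is higher with Slc4a1 and Atp6ap2 with Slc26a4, which was not tested.

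Agtr1a, the main target of angiotensin II, was a stromal transcript. It stood at 276, 278, 339 and 49.2 CPM in mural cells (236 ± 128) and at 133, 174, 172 and 93.5 CPM in fibroblasts (143 ± 38.1), ranges that overlapped. The mural value of mouse 4 was 3 UMIs, equal to the floor. Proximal tubule cells followed at 19.3 ± 7.43 CPM, below fibroblasts in 4 of 4 mice, and podocytes at 12.8 ± 17.9 CPM, of which mouse 4 gave 38.5 CPM and mouse 2 gave 0. A UMI was found in 53.4% ± 18.9 of mural cells and 0.547% ± 0.466 of T cells, with mean median depths of 6912 and 3735 UMIs (24.9% and 0.0584% after thinning). Endothelium, at 0.891 ± 0.357 CPM, was at the level of T cells (1.12 ± 0.935).

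Enpep, which degrades angiotensin II, was highest in podocytes. Their levels were 1119, 1146, 1173 and 448 CPM (971 ± 350, n = 4), above the mural class in 4 of 4 mice without overlap. Mouse 4 lay below the other three mice. Mural cells had 87.0 ± 35.1 CPM, thin limb cells 44.2 ± 23.9, proximal tubule cells 31.8 ± 10.2 and endothelium 20.1 ± 10.7 CPM, each overlapping the next, and the capsule-gene cluster had 114 ± 39.1 CPM. A UMI was found in 77.0% ± 7.70 of podocytes and 1.43% ± 1.12 of T cells (54.8% and 0.534% after thinning).

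Mme was shared by podocytes and intercalated cells. It stood at 460, 489, 606 and 226 CPM in podocytes (445 ± 159) and at 602, 699, 401 and 139 CPM in intercalated cells (460 ± 248), with each class higher in 2 of 4 mice. Mouse 4 was lowest in both. Thin limb (80.7 ± 52.7 CPM), thick ascending limb (63.1 ± 31.4), distal convoluted tubule (30.1 ± 18.8) and proximal tubule cells (16.0 ± 11.3) followed, with neighbouring ranges overlapping. The proximal tubule brush border is a known site of neprilysin, and its class here lay below the thick limb in 4 of 4 mice. This place depends on the capsule-gene cluster, set apart after the data were seen. Its mean was 9.20 times that of the proximal tubule class, which it exceeded in 4 of 4 mice. Counting it as proximal tubule gave a log2 fold change against the thick limb of -0.52 (adjusted p = 0.0512, edgeR). The T cell level, as background, was 1.73 ± 1.93 CPM.

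Intercalated cells were split by their exchanger genes into cells with Slc4a1, the exchanger of acid-secreting type A cells, and cells with Slc26a4 (pendrin), that of base-secreting type B cells, a gate chosen after the data were seen. Mme was at 815, 762 and 353 CPM in Slc4a1-positive cells of mice 1, 2 and 4 and at 73.8, 54.6 and 21.1 CPM in Slc26a4-positive cells of mice 1, 3 and 4. Slc4a1-positive cells were higher in the 2 mice that had both, and the ranges did not overlap. Atp6ap2 was at 392, 357 and 424 CPM in the former and at 672, 616 and 758 CPM in the latter, higher in Slc26a4-positive cells of both mice. The Slc4a1 group held 121 of 626 intercalated cells (55, 34 and 32 in mice 1, 2 and 4). The Slc26a4 group held 212, with 26, 10 and 170 in mice 1, 3 and 4. The differences between the groups were not tested.

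Podocytes were compared with endothelium of the whole kidney, where 373 of 8237 cells were named glomerular. Of 5 tested members 2 were called, both higher, where 31.1% of all genes were called, 14.4% higher and 16.7% lower. Mme (8.45, SE 0.29, adjusted p = 5.6e-07) and Enpep (5.59, SE 0.37, adjusted p = 7.4e-06) were higher in podocytes of 4 of 4 mice by edgeR, and both were called under every alternative run. Ren1 (-0.76), Ace (-0.22) and Atp6ap2 (0.0048) did not pass. Of 20 other renin-angiotensin genes 9 were tested, 0 were higher and 2 were lower, Rnpep (-1.19, SE 0.37) and Klk1 (-1.17, SE 0.29). Among renin cell genes 2 of 7 tested were higher, the prostaglandin receptor gene Ptger4 (3.29, SE 0.34) and Npr1 (0.89, SE 0.17), and 2 were lower, Gja4 (1 against 1126 UMIs) and Gja5 (3 against 407 UMIs).

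Atp6ap2 was found in every class. Class means ran from 54.95 ± 29.1 CPM in the distal convoluted tubule to 402 ± 88.5 CPM in intercalated cells, whose values of 422, 352, 316 and 517 CPM did not overlap those of any other class. Intercalated cells are rich in the proton pump that the protein belongs to. Macrophages (178 ± 16.8), collecting duct and connecting tubule cells (170 ± 14.5) and neutrophils (146 ± 19.1) followed, and neutrophils lay above fibroblasts (101 ± 8.56) without overlap. Of the 9 comparisons it was tested in all and called in 0 by edgeR, with 1 at an unadjusted p under 0.05 (mural cells against fibroblasts) and 0 by DESeq2.

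Within the proximal tubule, members were compared between segments and by injury. Of 2759 proximal tubule cells 240 were named straight and 952 convoluted. Median UMIs in mice 1 to 4 were 2740, 9736, 5457 and 1527 in straight and 8221, 4372, 1643 and 2354 in convoluted cells. A convoluted cluster of 72 cells in mouse 3 also met the straight markers Slc7a13, Slc5a10 and Acsm3. The segments differed in 0 of 5 tested members by edgeR, with 0 at an unadjusted p under 0.05 and 0 by DESeq2. Of all genes 22.6% were called by edgeR, 10.9% higher and 11.7% lower. Enpep stood at 28.9 ± 17.7 in straight and 45.2 ± 17.4 CPM in convoluted cells, lower in 4 of 4 mice (-0.45, SE 0.41, adjusted p = 0.438). Ace and Mme did not reach the filter, at 23.0 ± 20.2 against 7.39 ± 10.1 CPM and 26.9 ± 30.6 against 10.8 ± 14.5 CPM, each higher in straight cells of 3 of 4 mice. Without mouse 2 they passed it and were called (1.85 and 1.51, adjusted p = 0.0321 and 0.0416). They were tested but not called without mouse 4 (adjusted p = 0.0795 and 0.0840) or with no filter on low counts (0.0751 and 0.166, edgeR). The other renin-angiotensin genes had 0 of 10 called, 1 at an unadjusted p under 0.05 and 0 by DESeq2.

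Cells with a UMI of Havcr1, the gene of kidney injury molecule 1, were compared with proximal tubule cells without it (487 and 2272 cells). The positive cells were deeper, with median UMIs of 7002, 8486, 5983 and 4019 against 3419, 4109, 2525 and 1959. Of 7 tested members 1 was called, where 2.11% of all genes were called, 0.543% higher and 1.57% lower. That was Ren1 (-3.07, SE 0.79, adjusted p = 0.0481, edgeR), lower in 3 of 4 mice, from 905 CPM in Havcr1-negative cells of mouse 3 that came from the single Ren1-rich cell named above. Without the non-mural cells of 20 or more Ren1 UMIs it stood at -0.48 (adjusted p = 0.371) and without mouse 3 at -0.29 (adjusted p = 0.726). It also did not pass without mouse 2 (adjusted p = 0.0576) or mouse 4 (0.117), or by DESeq2 (0.501). Agt, Agtr1a, Enpep, Mme and Atp6ap2 had log2 fold changes between -0.05 and 0.19 and Ace 0.70 (SE 0.42, adjusted p = 0.395, 10.6 ± 5.13 against 5.61 ± 5.06 CPM, higher in 4 of 4 mice). With the capsule-gene cluster counted as proximal tubule, Mme (-1.68), Enpep (-0.88) and Ace (1.501) were called (adjusted p = 0.0115, 0.0497 and 0.0428). Of the other renin-angiotensin genes 0 of 10 tested were called by edgeR, 1 at an unadjusted p under 0.05 and 0 by DESeq2.

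**Figure D5:**
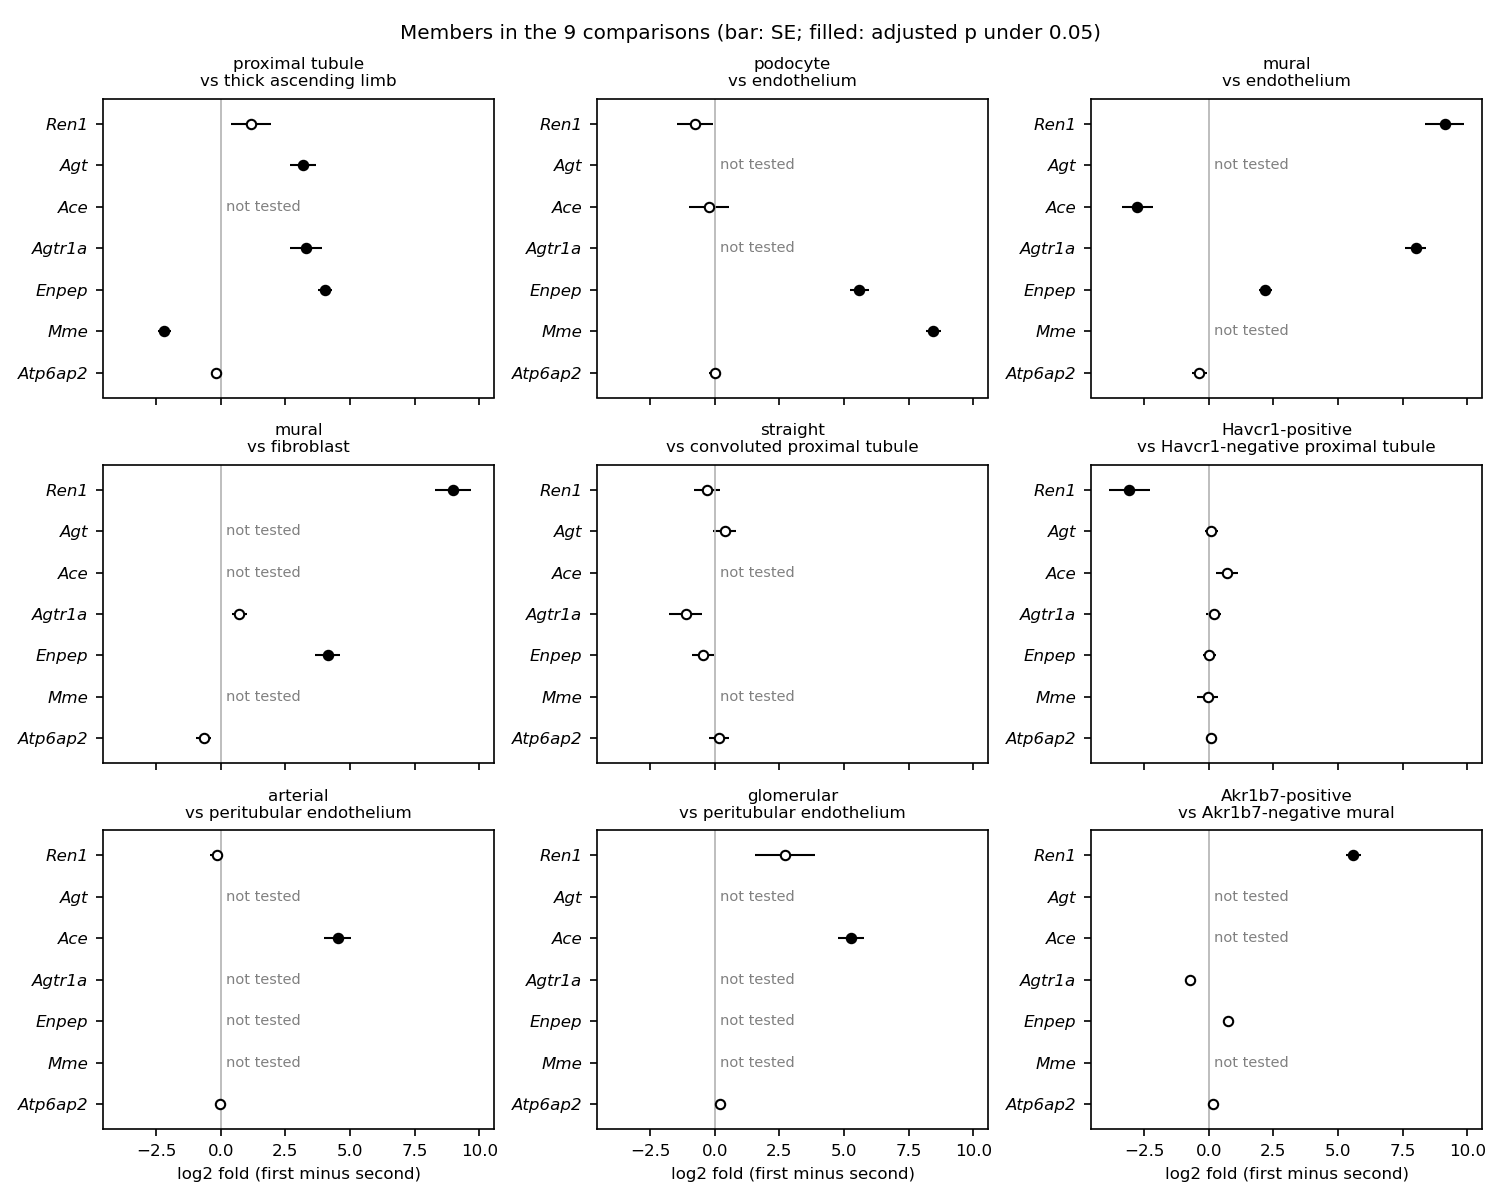
Log2 fold change of each member in the 9 comparisons, first class minus second, with bars for the SE and filled points for an adjusted p under 0.05 over all genes. Ren1 and Agtr1a are far to the right in mural cells, Enpep and Mme in podocytes and Ace in glomerular and arterial endothelium, and genes under the count filter are marked as not tested.

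Genes with the pattern most like each member were sought across the 14 classes by Pearson correlation of mean log2(CPM + 1), among 11952 genes of 20 CPM or more in some class. Classes of 1 library share depth and background, so these values are descriptions. Ren1 was most like Hpse2, Sfrp2 and Ephx3 (r = 0.983, 0.982 and 0.981), and Agtr1a most like Slc7a2, A730049H05Rik and Col12a1 (r = 0.961, 0.949 and 0.948). Mural cells are a single class here, so likeness to Ren1 does not mean the same mural cells. Hpse2 was a leading gene of mural cluster 40, Sfrp2 of cluster 45 and Ephx3 of cluster 18. Agt was most like Osr2, Slc1a2 and Galnt14 (r = 0.968, 0.968 and 0.965). Mme was most like Rassf10, Fa2h and Arfgef3 (r = 0.937, 0.899 and 0.868). The match was looser for Enpep (Kcnj12, Csnk1a1 and Cry2, r = 0.874, 0.859 and 0.851), Atp6ap2 (Scand1, the proton pump subunit gene Atp6v0b and Nipa2, r = 0.869, 0.848 and 0.826) and Ace (Lipa, Slc7a7 and Cd36, r = 0.851, 0.817 and 0.817).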

How the data were processed

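Single-cell libraries of 4 kidneys were analysed, with the groups taken from the labels. The deposited matrices hold whole-number UMI counts per gene and barcode, made by the authors with Cell Ranger 9.0.1, per the file headers. The submitters' processing notes also name Seurat 4.1.1, in no stated role. Genome build and annotation are not given in the sources used here, so no coordinates are taken from the files. Symbols come from the files.

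Barcodes with 500 UMIs, 300 genes and a mitochondrial share under 50% were kept. Doublets called by Scrublet in scanpy 1.11.5 were removed, but it marked 0, 111, 1 and 1 cells of mice 1 to 4, so it did not work in mice 1, 3 and 4. An alternative removed the highest scores (0.8% per 1000 cells). Cells were clustered (2000 variable genes, 30 components, 15 neighbours, Leiden at resolution 1, 57 clusters, no integration) without the members, the gene lists or mitochondrial and ribosomal genes. A cluster took a name from 3 or more markers in 20% of its cells or more and 2-fold above the rest, and stayed unnamed with markers of another lineage or a mean doublet score over 0.2. Endothelial and proximal tubule subtypes were named within each mouse. The numerical limits of naming, the subtype limits, the capsule-gene cluster and the intercalated cell gates were chosen after the data were seen, and the members and lists were chosen with earlier results of these data known.

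Counts were summed per mouse and class (10 cells or more, 3 mice or more) and tested with edgeR 4.0.16 (quasi-likelihood, TMM, filterByExpr, Benjamini-Hochberg over all genes tested, threshold 0.05) in R 4.3.3. The mouse was a block because both classes of a comparison come from the same animal, and it is taken from the labels. That the mice are separate animals rests on the labels. On simulated counts with 4-fold changes the test recovered 57.5% (glomerular against peritubular endothelium, 7794 genes) to 97.9% (proximal tubule against thick ascending limb, 12514 genes) of changed genes. The simulated counts had a fixed dispersion and no differences between mice, and only genes above a minimum expected count were changed. The recovery may therefore be lower for members with few counts or a wide spread between mice. DESeq2 1.42.0 was an alternative. Named genes are the 7 members, up to 4 called genes with the largest change from a list of 20 other renin-angiotensin genes and from 12 genes of the renin cell and its control, and the 3 genes most like each member. Promoter sequences come from RefSeq tables.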

Additional observations from a re-analysis of the deposited data

Results flagged for a closer look

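In 44 sets of 4 mice (a member in a class or subtype with a mean of 20 CPM or more), 6 had 1 mouse far from the other 3 by Dixon's ratio at the 95% level, which chance gives in about 1 of 20 sets. Ren1 in proximal tubule cells of mouse 3 stood at 455.8 CPM with the next mouse at 50.2. Ren1 in endothelium of mouse 4 stood at 274.7 CPM with the next at 58.5. In glomerular endothelium of mouse 4 it stood at 18883 CPM with the next at 55.2. In fibroblasts of mouse 4 Ren1 was at 186.98 CPM with the next at 70.7. Enpep in podocytes of mouse 4 was low, at 447.6 CPM with the next at 1119, and Mme in the thick ascending limb of mouse 4 was low, at 16.4 CPM with the next at 74.4. The proximal tubule and endothelial values each came largely from 1 cell with over 1000 Ren1 UMIs.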

How the results depend on the processing

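Of 552 values of single members under alternatives, 479 kept their direction and their side of the threshold, 14 lost the call, 11 gained it and 48 changed sign. Of these 48, 0 were called in the main setting and 1 under the alternative, Enpep in Havcr1-positive against Havcr1-negative proximal tubule cells, at -0.88 with the capsule-gene cluster counted as proximal tubule. Without the cells of 20 or more Ren1 UMIs, mean Ren1 went from 136 to 27.5 CPM in the proximal tubule and from 99.5 to 30.9 CPM in endothelium. The highest doublet scores, the capsule-gene cluster and the cells of 20 or more Ren1 UMIs were alternatives chosen after seeing the data. The straight against convoluted comparison was not run at a mitochondrial limit of 20%, where straight cells were named in 1 mouse. The causes of the changes below were not tested.

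The values that changed sign, none past the threshold except Enpep above, were these log2 fold changes. Against the thick limb, Ren1 went from 1.17 to -0.21 without the highest doublet scores and -0.086 without Ren1-rich non-mural cells. Between podocytes and endothelium, Atp6ap2 went from 0.0048 to -0.028 (relative log expression scaling), -0.035 (DESeq2), -0.21 (no filter), -0.060 (no block), -0.00089 (mitochondrial limit of 20%), -0.0017 (1000 UMIs), -0.050 (resolution 0.5) and -0.033 (doublet scores), and Ace to 0.0032 (1000 UMIs). Between straight and convoluted cells with 1000 UMIs or more, Ren1 stood at 0.81, Agt at -0.29 and Atp6ap2 at -0.39. By Havcr1, Enpep stood at -0.0035 (DESeq2), -0.051 (no filter), -0.028 (no block), -0.036 (mitochondrial limit), -0.017 (gate of 2 UMIs) and -0.17 (doublet scores), Mme at 0.010 (no block) and 0.067 (mitochondrial limit), Atp6ap2 at -0.0011 (mitochondrial limit), and Agt at -0.10 (gate of 2 UMIs) and -0.76 (capsule-gene cluster). In arterial cells Atp6ap2 stood at 0.079 (1000 UMIs), 0.026 (resolution 0.5), 0.17 (thinned) and 0.11 (doublet scores), and in glomerular cells Ren1 at -0.23 (1000 UMIs) and -0.16 (doublet scores).

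Leaving out each mouse, values that changed sign ranged from -0.23 to 2.17 for Ren1 against the thick limb, from -2.04 to 0.34 for Ace and -0.13 to 0.17 for Atp6ap2 in podocytes, and, in straight cells, from -1.05 to 0.23 for Ren1, -0.069 to 0.76 for Agt and -0.25 to 0.46 for Atp6ap2. By Havcr1 they ranged from -0.020 to 0.39 for Agtr1a, -0.14 to 0.25 for Enpep, -0.36 to 0.32 for Mme and -0.071 to 0.38 for Atp6ap2. In arterial cells they ranged from -0.21 to 0.067 for Ren1 and -0.12 to 0.047 for Atp6ap2, and in glomerular cells from -0.016 to 0.27 for Atp6ap2.

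Without the mouse as a block, which pairs the classes of an animal, genes called went from 4561 to 2192 (proximal tubule against thick ascending limb), 3645 to 2166 (podocyte against endothelium), 4054 to 2055 (mural against endothelium), 1204 to 480 (mural against fibroblast), 1604 to 0 (straight against convoluted), 210 to 1 (Havcr1), 1733 to 290 (arterial), 1154 to 185 (glomerular) and 13 to 1 (Akr1b7). Members called went to 0 for Havcr1 and to 0 for Akr1b7 without the block.

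Thinned to 1000 UMIs a cell, with fewer genes tested, the same comparisons called 2062, 1755, 1879, 300, 151, 266, 702, 360 and 37 genes, and members called were 2 for the thick limb, 1 for the fibroblast and 0 for the Havcr1, arterial and glomerular comparisons. The share of neutrophils with a Ren1 UMI went to 3.21%. With no filter on low counts, genes called were 6168 (mural against endothelium), 1923 (mural against fibroblast), 820 (straight), 537 (Havcr1) and 876 (Akr1b7), and members called were 4 (podocyte), 2 (arterial), 3 (glomerular) and 3 (Akr1b7). DESeq2 called 1109 (arterial), 599 (glomerular) and 143 genes (Akr1b7), and 0 members for Havcr1. Of the Akr1b7 calls, 69.2% were higher by edgeR and 35.7% by DESeq2.

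A mitochondrial limit of 20% gave 3 genes and 0 members (Havcr1) and 769 genes (glomerular). Cells of 1000 UMIs or more gave 185 genes (straight), 0 members (Havcr1), and 737 genes and 2 members (glomerular). Clustering at resolution 0.5 gave 1082 genes (arterial), and 683 genes and 2 members (glomerular). A Havcr1 gate of 2 UMIs gave 70 genes and 0 members. Removing the highest doublet scores gave 0 members (Havcr1), 2 members (glomerular) and 55 genes (Akr1b7). The capsule-gene cluster as proximal tubule gave 911 genes and 3 members (Havcr1), and leaving out non-mural cells of 20 or more Ren1 UMIs gave 0 members.

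Leaving out each mouse in turn, genes called ranged from 3483 to 5500 (thick limb), 2747 to 4100 (podocyte), 2917 to 4781 (mural against endothelium), 809 to 1324 (fibroblast), 283 to 1749 (straight), 49 to 210 (Havcr1), 1303 to 1852 (arterial), 284 to 1859 (glomerular) and 1 to 733 (Akr1b7). Members called ranged from 4 to 5, 2 to 2, 4 to 4, 2 to 3, 0 to 2, 0 to 1, 1 to 2, 1 to 2 and 0 to 2 in that order. Depth limits the values of mouse 4, where 12 mural cells and 18 glomerular endothelial cells were kept.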
